A study of Mus musculus with 12 samples.

Results

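The genes described here are 6 CC chemokines, Ccl2, Ccl7, Ccl12, Ccl3, Ccl4 and Ccl5, chosen by name from a table of 54532 mouse genes. All 6 were found in it under their own symbols, and the question was which of them still responded to LPS (lipopolysaccharide, an outer membrane molecule of bacteria that sets off inflammation) in pups that had met it before. RNA came from hippocampi of 15-day-old pups of C57BL/6J, an inbred mouse strain, with 3 animals in each of 4 groups. Every pup had an injection under the skin on day 3 and another into the abdomen on day 14, and tissue was taken 24 h after the latter. SS pups had saline on both days, SL pups saline and then LPS, LS pups LPS and then saline, and LL pups LPS on both days, with LPS at 5 mg/kg each time. No group carried a genetic change, and sex is not stated in the labels.

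CC chemokines are small secreted proteins, named for a pair of adjacent cysteines, that draw leukocytes along a gradient by binding receptors of the CCR family. Ccl2, Ccl7 and Ccl12 are ligands of CCR2, the receptor that brings monocytes out of bone marrow and into inflamed tissue. Ccl3 and Ccl4, the macrophage inflammatory proteins, and Ccl5, also called RANTES, draw monocytes and lymphocytes, and Ccl3 and Ccl5 act through CCR1. In brain, microglia, astrocytes, endothelial cells and perivascular macrophages are all known sources.

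The genes lie on chromosome 11 in 2 groups (mm10 coordinates of the deposited table). Ccl2 (82035571 to 82037453), Ccl7 (82045712 to 82047525) and Ccl12 (82101845 to 82103400) are on the plus strand, with gaps of 8.26 kb and 54.3 kb between them. Ccl5 (83525778 to 83530518) and Ccl3 (83647844 to 83649355) are on the minus strand and Ccl4 (83662584 to 83664683) on the plus strand. A gap of 1422 kb separates Ccl12 from Ccl5. The longest stretch shared by the annotated transcripts of any pair of these genes was 23 bases, between Ccl2 and Ccl7, so none is a near-identical copy of another. The RefSeq promoter table (GRCm38.p6) held 2 of the 6, Ccl12 and Ccl3, which kept the largest and the smallest share of the response. The 250 bases before their start sites are shown for that reason, 5′ to 3′ on the strand of the gene. The Ccl12 sequence is chr11:82101595-82101844 on the plus strand, and the Ccl3 sequence is chr11:83649379-83649628 on the minus strand.
Ccl12: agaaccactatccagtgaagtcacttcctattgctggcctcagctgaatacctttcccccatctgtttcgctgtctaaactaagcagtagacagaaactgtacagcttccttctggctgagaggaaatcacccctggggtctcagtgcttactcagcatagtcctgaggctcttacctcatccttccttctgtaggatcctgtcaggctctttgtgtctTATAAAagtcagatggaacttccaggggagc
Ccl3: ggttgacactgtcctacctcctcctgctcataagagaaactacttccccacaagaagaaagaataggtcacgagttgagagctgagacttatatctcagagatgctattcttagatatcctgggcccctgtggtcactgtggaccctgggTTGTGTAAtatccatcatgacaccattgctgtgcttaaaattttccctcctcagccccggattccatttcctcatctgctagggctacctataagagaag
Capitals mark the matches to 6 short motifs searched on both strands. Ccl12 held a TATA box (TATAAA), found in 12.4% of 32851 such stretches. Ccl3 held a C/EBP motif (TTNNGNAA), found in 36.8%. Neither stretch held an AP-1 motif (TGANTCA, in 6.75% of stretches), a GAS motif (TTCNNNGAA, 7.02%), an ISRE (GAAA and GAAA with 2 bases between, 2.98%) or the kB consensus of NF-kB (7.25%). These matches describe letters in 1 window and were not tied to the expression values.

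The libraries held 16979666 to 24105022 fragments in the listed genes, with the highest depths in LL. The values are FPKM, which count fragments for each kilobase of a gene and are scaled to the size of the library, and 1 fragment in a gene of 1 kb was worth 0.0402 to 0.0587 FPKM. The test took the 17687 genes that reached 0.5 FPKM in 3 or more libraries. All 6 chemokines passed, each with 3 SL libraries above that level. Ccl12 had 8 of the other 9 libraries above it, Ccl2, Ccl3 and Ccl7 had 3 each, Ccl4 had 1 and Ccl5 had 0, so that Ccl4 and Ccl5 were tested only because they were high in SL. Fold changes are differences of log2(FPKM + 0.5), which understates the change of low genes, and adjusted p are from limma over all genes tested. The hippocampal neuron markers fixed for the tissue check summed to 469 to 578 FPKM over the 12 libraries, and limma and limma voom called 0 of the 6 in every comparison (1 had an unadjusted p under 0.05, in LL against SL). In SL against SS, 1249 genes were higher and 666 lower, and median centring turned this into 1091 and 1164. In LL against SL, 588 were higher and 966 lower, and median centring turned this into 817 and 776. The direction of all 6 chemokines in these comparisons was the same under both scalings.

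Ccl12, known as MCP-5, is a monocyte attractant of mice. In SS pups it was at 0.437, 0.863 and 0.504 FPKM, and in LS pups at 0.549, 0.833 and 1.01. After LPS on day 14 alone, the SL libraries stood at 55.6, 51.0 and 62.4 FPKM, and after LPS on both days the LL libraries stood at 7.57, 19.8 and 15.8. Each LL value lay above each LS value and below each SL value, while SS and LS overlapped. Ccl12 rose in SL against SS (log2 fold change 5.70, SE 0.29) and in LL against LS (3.43, SE 0.29; adjusted p = 0.000126). The LL mean of 14.4 ± 6.22 FPKM was 18-fold the LS mean of 0.798 ± 0.233 (SD, n = 3), and LL replicate 1, with 101 fragments, was the lowest of its group.

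Ccl2, or MCP-1, is the main CCR2 ligand in mice and humans. Its SS libraries were at 0.103, 0.0509 and 0 FPKM and its LS libraries at 0.259, 0 and 0.0477, so it was near the level of single fragments without LPS on day 14. The SL libraries were at 53.0, 34.0 and 27.7 FPKM and the LL libraries at 1.03, 1.58 and 1.41. The LL values lay above every SS and LS value and far below every SL value. Ccl2 rose by 6.08 (SE 0.23) in SL against SS and by 1.62 (SE 0.23; adjusted p = 0.00343) in LL against LS. The LL libraries together held 107 Ccl2 fragments and the LS libraries 7.

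Ccl7, or MCP-3, lies next to Ccl2 and shares its receptor. It was at 0, 0 and 0.0676 FPKM in SS and at 0.123, 0.0620 and 0.0678 in LS. SL libraries were at 16.5, 8.22 and 7.27 FPKM and LL libraries at 0.552, 1.12 and 1.004. The order of the groups was that of Ccl2, with no overlap of LL with any other group. Ccl7 rose by 4.33 (SE 0.26) in SL against SS. In LL against LS it rose by 1.23 (SE 0.26; adjusted p = 0.0314), a call that rested on 50 fragments against 4. It ended when any LS library, LL replicate 2 or LL replicate 3 was left out, with adjusted p from 0.0541 to 0.134.

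Ccl3, or MIP-1 alpha, is a product of activated macrophages and microglia. It was at 0.460, 0.227 and 0 FPKM in SS and at 0.706, 0.195 and 0.425 in LS. SL libraries reached 64.0, 58.1 and 39.7 FPKM, a level like that of Ccl12, but LL libraries were at 1.21, 0.470 and 1.16. LL replicate 2 lay below LS replicate 1, so these groups overlapped. Ccl3 rose by 6.24 (SE 0.30) in SL against SS, the largest of the 6 estimates with 0.5 added. The ratio of mean FPKM was larger for Ccl2, at 744 on 3 fragments in SS, than for Ccl3, at 236 on 9. In LL against LS the estimate was 0.61 (SE 0.30; adjusted p = 0.423), which did not pass the test.

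Ccl4, or MIP-1 beta, is the gene next to Ccl3. It was at 0.178, 0.263 and 0 FPKM in SS, at 20.5, 28.1 and 22.3 in SL, at 0.0745, 0.0753 and 0.0823 in LS, and at 0.549, 0.136 and 0.385 in LL. Each LS library held a single Ccl4 fragment, and the LL libraries held 9, 2 and 6. LL lay above LS without overlap but overlapped SS. Ccl4 rose by 5.23 (SE 0.20) in SL against SS, and its LL against LS estimate of 0.54 (SE 0.20; adjusted p = 0.256) did not pass.

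Ccl5 draws T cells as well as monocytes. It was at 0, 0 and 0.0564 FPKM in SS and at 0, 0.155 and 0.0566 in LS. SL libraries were at 7.42, 5.56 and 4.27 FPKM and LL libraries at 0.461, 0.187 and 0.441. LL lay above LS and SS without overlap, and on few fragments, 25 against 4 in LS. Ccl5 rose by 3.56 (SE 0.20) in SL against SS. In LL against LS the estimate was 0.59 (SE 0.20; adjusted p = 0.206), which did not pass.

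**Figure D1:**
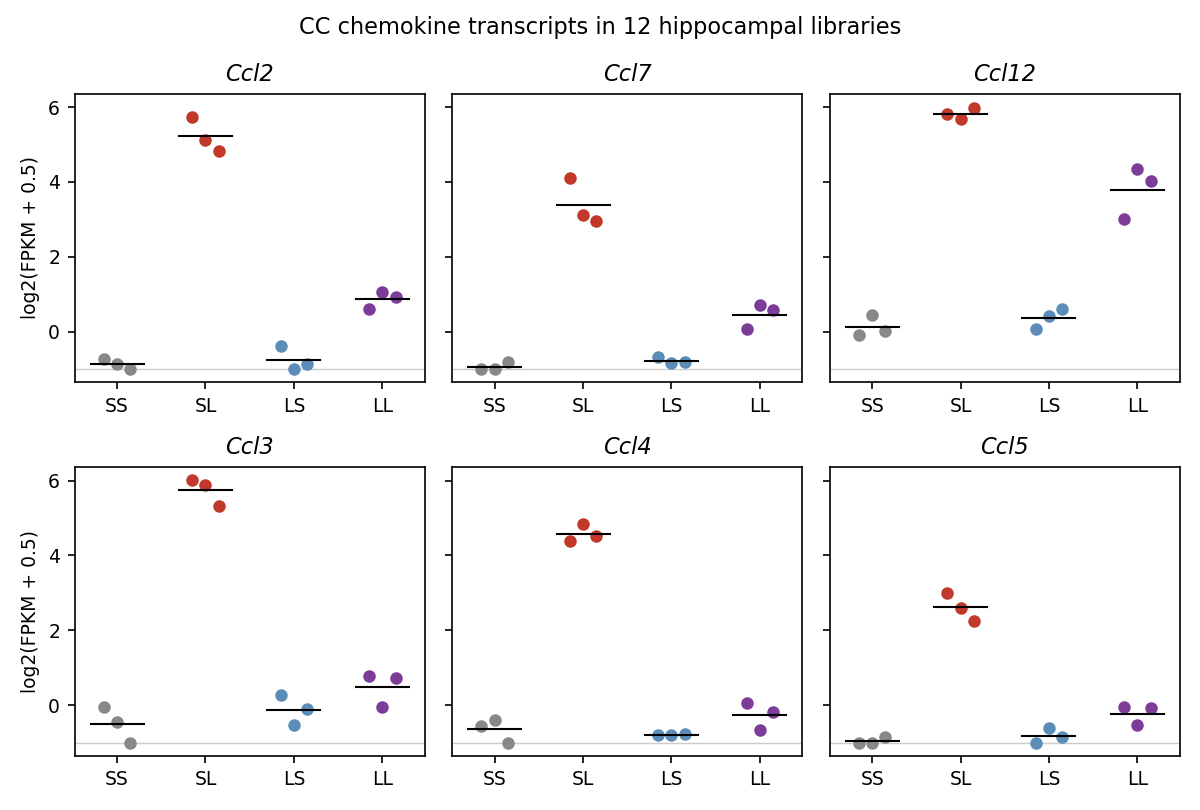
Level of each CC chemokine as log2(FPKM + 0.5) in the 12 libraries, by group. Points are single animals in the order of replicates 1 to 3, black bars are group means, and the grey line is 0 FPKM. All 6 genes are highest in SL, and Ccl12 alone has every LL library above 7 FPKM.

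The first encounter with LPS on day 14 was compared in SL against SS. Ccl4 and Ccl5 were tested only because they were high in SL, so their calls here lend no support of their own. All 6 chemokines rose in this comparison, where 7.06% of all tested genes were called higher. The median log2 fold change of the 6 was 5.47, against a median near 0 over all genes tested. With 3 or fewer fragments in the SS group, the ratio of fragments had a wide counting interval for 3 of them. It was 779 for Ccl2 (95% interval 266 to 3779), 462 for Ccl7 (82.6 to 18302) and 296 for Ccl5 (52.7 to 11714), and these intervals cover counting error only. Ratios of mean FPKM were 236 for Ccl3, 161 for Ccl4 and 93.7 for Ccl12, which had the highest saline level of the 6. The SL means ran from 56.3 ± 5.76 FPKM for Ccl12 through 53.9 ± 12.7 for Ccl3, 38.2 ± 13.2 for Ccl2, 23.7 ± 3.98 for Ccl4 and 10.7 ± 5.10 for Ccl7 to 5.75 ± 1.58 for Ccl5 (SD, n = 3). Neighbours in this order overlapped between libraries except Ccl4 and Ccl7, whose SL libraries did not.

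LS against SS asks what an early dose of LPS with nothing after it had left by day 15. None of the 6 passed in limma or limma voom, and the unadjusted p was under 0.05 for 0 of them, where 0.311% of all tested genes were called. That background of 55 genes was unstable, and leaving out any SS or LS library moved it by over 1.5 times, from 5 (without SS replicate 3) to 205 (without LS replicate 1), as did leaving out LL replicate 1 (36) or SL replicate 2 (32). The estimates ran from -0.14 (SE 0.20) for Ccl4 to 0.38 (SE 0.30) for Ccl3. For all 6 the LS and SS libraries were at or near the level of a few fragments, except Ccl12, which had 25 fragments in LS and 17 in SS, and Ccl3, with 20 and 9. Differences as small as the spread between these libraries were not detectable at this depth.

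The second LPS in pups already exposed was compared in LL against LS. The 3 CCR2 ligands, Ccl2, Ccl7 and Ccl12, rose, and Ccl3, Ccl4 and Ccl5 did not pass the test, where 2.4% of all tested genes were called higher. Before adjustment, the limma p was 0.0695 for Ccl3, 0.0218 for Ccl4 and 0.0139 for Ccl5. Every LL library lay above every LS library for 5 of the 6, all but Ccl3, as it did for 11% of all tested genes. Ratios of mean LL to mean LS FPKM were 18 for Ccl12, 13.1 for Ccl2, 10.6 for Ccl7, 5.14 for Ccl5 and 2.14 for Ccl3. Ccl2, Ccl7 and Ccl5 had 7, 4 and 4 fragments in LS. The 95% counting intervals of their fragment ratios overlapped, at 5.97 to 32.4, 3.82 to 39.7 and 1.80 to 20.6. For Ccl4, with 3 fragments in LS, the ratio of fragments was 4.72 with a 95% counting interval of 1.36 to 25.1. With limma voom on fragments Ccl12 alone was called, and Ccl2 (4.13, adjusted p = 0.167) and Ccl7 (2.95, adjusted p = 0.183) were not. LL against SS compared both injections of LPS with none. There the same 3 genes were called higher, at 3.67 (SE 0.29; adjusted p = 3.12e-05) for Ccl12, 1.73 (SE 0.23; adjusted p = 0.00143) for Ccl2 and 1.39 (SE 0.26; adjusted p = 0.0151) for Ccl7, where 2.13% of all tested genes were called higher. Ccl3 (0.99, SE 0.30; adjusted p = 0.149), Ccl5 (0.72, SE 0.20; adjusted p = 0.113) and Ccl4 (0.40, SE 0.20; adjusted p = 0.475) were not called. There too, limma voom called Ccl12 alone, and the Ccl7 call ended when SS replicate 1, SS replicate 2, LL replicate 2 or LL replicate 3 was left out (adjusted p up to 0.0807).

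**Figure D2:**
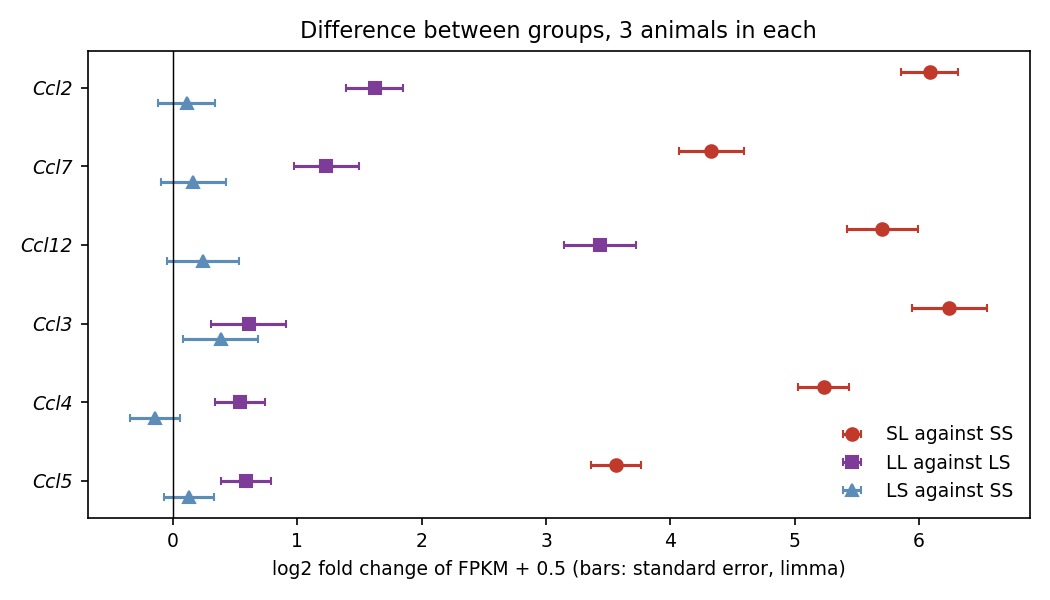
Log2 fold change of FPKM + 0.5 for the 6 chemokines in SL against SS, LL against LS and LS against SS. Symbols are limma estimates and bars are standard errors, with 3 animals in each group. The SL against SS estimates lie between 3.56 and 6.24, and in LL against LS only Ccl12, at 3.43, is above 2.

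The response that remained was expressed as the LL minus LS difference of mean FPKM in percent of the SL minus SS difference. Ccl12 kept 24.4% of it, with a range of 19.6% to 30.5% over leaving out each library in turn. Ccl7 kept 7.59% (range 6.51% to 10.5%), Ccl5 5.10% (4.25% to 6.63%) and Ccl2 3.24% (2.85% to 4.02%). Ccl4 kept 1.19% (0.779% to 1.66%) and Ccl3 0.938% (0.694% to 1.38%). The ranges of Ccl7 and Ccl5 overlapped, as did those of Ccl4 and Ccl3, and Ccl12 stood clear of the other 5. As a ratio of log2 fold changes the shares were larger, at 60.2% for Ccl12, 28.4% for Ccl7, 26.7% for Ccl2, 16.6% for Ccl5, 10.3% for Ccl4 and 9.75% for Ccl3. Ccl12 was highest and Ccl3 lowest on both scales, while Ccl5 stood above Ccl2 on the FPKM scale and below it on the log2 scale.

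Whether the day 14 response differed with the day 3 injection was tested as an interaction. Ccl4 and Ccl5 were tested only because they were high in SL. That group enters the interaction and LL against SL, so their calls there lend no support of their own. The interaction was negative for all 6, where 3.19% of all tested genes were called lower. The size ran from -5.64 (SE 0.43; adjusted p = 3.67e-05) for Ccl3 through -4.69 (SE 0.29) for Ccl4, -4.46 (SE 0.32) for Ccl2, -3.10 (SE 0.37) for Ccl7 and -2.97 (SE 0.28) for Ccl5 to -2.27 (SE 0.41; adjusted p = 0.00691) for Ccl12. With limma voom the interactions of Ccl2, Ccl7 and Ccl12 (adjusted p = 0.203, 0.124 and 0.216) were not called, and with a choroid plexus covariate those of Ccl5, Ccl7 and Ccl12 were not. In the direct comparison of LL with SL all 6 were lower in LL, every LL library lay below every SL library for all 6 (as for 13.9% of all tested genes), and 5.46% of all tested genes were called lower. The difference was smallest for Ccl12 (-2.03, SE 0.29; adjusted p = 0.000948), a mean SL level 3.92 times that in LL, and largest for Ccl3 (-5.25, SE 0.30). The mean SL level of Ccl4 was 66.4 times that in LL, and that of Ccl3 57 times. In bulk tissue, fewer cells of a type and less RNA per cell cannot be told apart.

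Since a call in 1 gene and not in another does not show that they differ, the difference between each pair of chemokines was taken within each library, as the log2 of their ratio, and compared between groups by an exact two-sided permutation test. With 3 against 3 animals the exact permutation test cannot go below p = 0.1. For LL against SL, 10 of the 15 pairs did not overlap between the groups (exact p = 0.1 each, 0.15 after Benjamini-Hochberg adjustment over the 15), as did 27.7% of all pairs of tested genes. On this scale the mean of Ccl3 less Ccl12 was -3.31 in LL and -0.09 in SL, a difference of -3.22. The difference for Ccl4 to Ccl12 was -2.81 and that for Ccl2 to Ccl12 was -2.32, both without overlap. For Ccl7 to Ccl12 (-0.91, exact p = 0.2) and Ccl5 to Ccl12 (-0.81, exact p = 0.3) the groups overlapped. The added 0.5 is of the order of the LL means of Ccl7 (0.893 FPKM) and Ccl5 (0.363 FPKM). These 2 overlaps therefore belong to this scale and do not show that the genes go together. Ccl7 and Ccl5 did not part (0.10 on the log2 scale, exact p = 0.9). The same 15 differences for LL against LS, chosen after seeing the data, had 9 pairs without overlap (exact p = 0.1 each, 0.167 adjusted), where 20.4% of all pairs of tested genes had none, among them Ccl12 against each of the other 5 and Ccl2 against each of the other 5. On this scale Ccl7 overlapped with Ccl3, Ccl4 and Ccl5 there (exact p = 0.2 each). Its call and their lack of one are thus not shown by this measure to be a difference between the genes. Each LS library held 1 or 2 Ccl7 fragments, so the added 0.5 makes up most of its value there. The overlap therefore does not show that these genes respond alike.

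The 6 genes together summed to 1.07 ± 0.399 FPKM in SS and 189 ± 26.8 in SL, and to 1.57 ± 0.221 in LS against 18.3 ± 6.18 in LL (SD, n = 3). Their make-up in the groups given LPS on day 14 was not alike. In SL, Ccl12 made up 25.6%, 27.6% and 38.1% of the summed FPKM and in LL 66.6%, 84.97% and 78.3%. Ccl3 went from 28.4 ± 3.69% in SL to 6.13 ± 4.32% in LL, Ccl2 from 19.9 ± 3.98% to 7.60 ± 1.24%, and Ccl4 from 12.8 ± 2.98% to 2.44 ± 2.17%. For these 4 genes no LL share overlapped an SL share. Ccl7, at 5.50 ± 1.84% and 4.88 ± 0.0681%, and Ccl5, at 3.01 ± 0.404% and 2.35 ± 1.63%, overlapped.

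**Figure D3:**
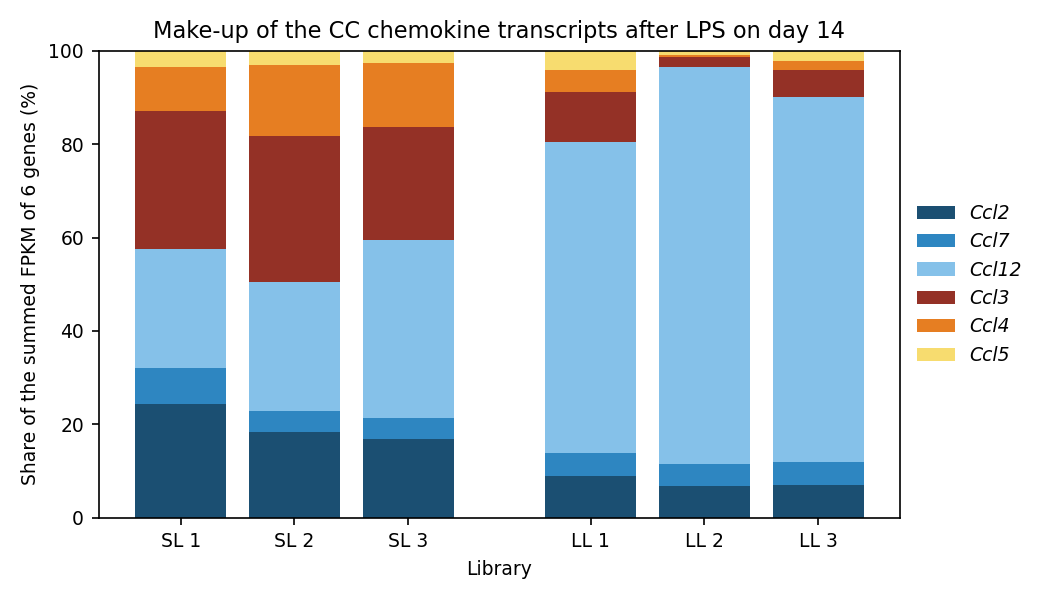
Share of each gene in the summed FPKM of the 6 chemokines (percent, stacked to 100) in the 3 SL and 3 LL libraries. Ccl12 makes up 25.6% to 38.1% of the bars in SL and 66.6% to 84.97% in LL.

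Within LL, the 2 sets of genes did not rank the animals alike. Replicate 1 was the lowest of the 3 animals for Ccl2, Ccl7 and Ccl12 and the highest for Ccl3, Ccl4 and Ccl5. Replicate 2 was the highest for Ccl2, Ccl7 and Ccl12 and the lowest for Ccl3, Ccl4 and Ccl5, with 8, 2 and 4 fragments for the latter. With 3 animals, and the low counts of Ccl4 and Ccl5, this order is given as values without a test.

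The other CC chemokine genes include neighbours on the same stretches of the chromosome. Of 16 other CC chemokines 8 were tested, 3 rose in SL against SS and 1 in LL against LS. Over all tested genes 7.06% and 2.4% were called higher in these comparisons. Ccl11, or eotaxin, lies between Ccl7 and Ccl12, and it was at 0.735 ± 0.129 FPKM in SL, 0.142 ± 0.0529 in LL and 0.0776 ± 0.0238 in LS. It rose in SL against SS (1.12, SE 0.16), and its LL against LS estimate was 0.15 (SE 0.16; adjusted p = 0.772). Ccl11 reached 0.5 FPKM in SL libraries only, so it was tested only because it was high there. Ccl8, the gene beyond Ccl12, was below the filter, with means of 0.101 FPKM in SL and 0.108 in LL. Ccl9 and Ccl6, macrophage-expressed chemokines of rodents, lie between Ccl5 and Ccl3. Ccl9 rose by 1.15 (SE 0.14) in SL against SS and by 0.68 (SE 0.14; adjusted p = 0.0282) in LL against LS, from 0.190 ± 0.0561 to 0.608 ± 0.126 FPKM. Ccl6 rose by 0.81 (SE 0.19) in SL against SS and had 0.74 (SE 0.19; adjusted p = 0.083) in LL against LS. The share of the response that remained was 35.8% for Ccl9 (29.5% to 40.4% leaving out 1 library), 65.1% for Ccl6 (55.2% to 101%) and 9.64% for Ccl11 (6.33% to 14.1%). Only Ccl11 of these 3 had a called interaction (-0.97, SE 0.23; adjusted p = 0.0341), and limma voom called none of the 8 there. Ccl20, which attracts CCR6-bearing cells, was below the filter, with a mean of 0.937 FPKM in SL and 0 fragments in every LS and LL library.

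**Figure D4:**
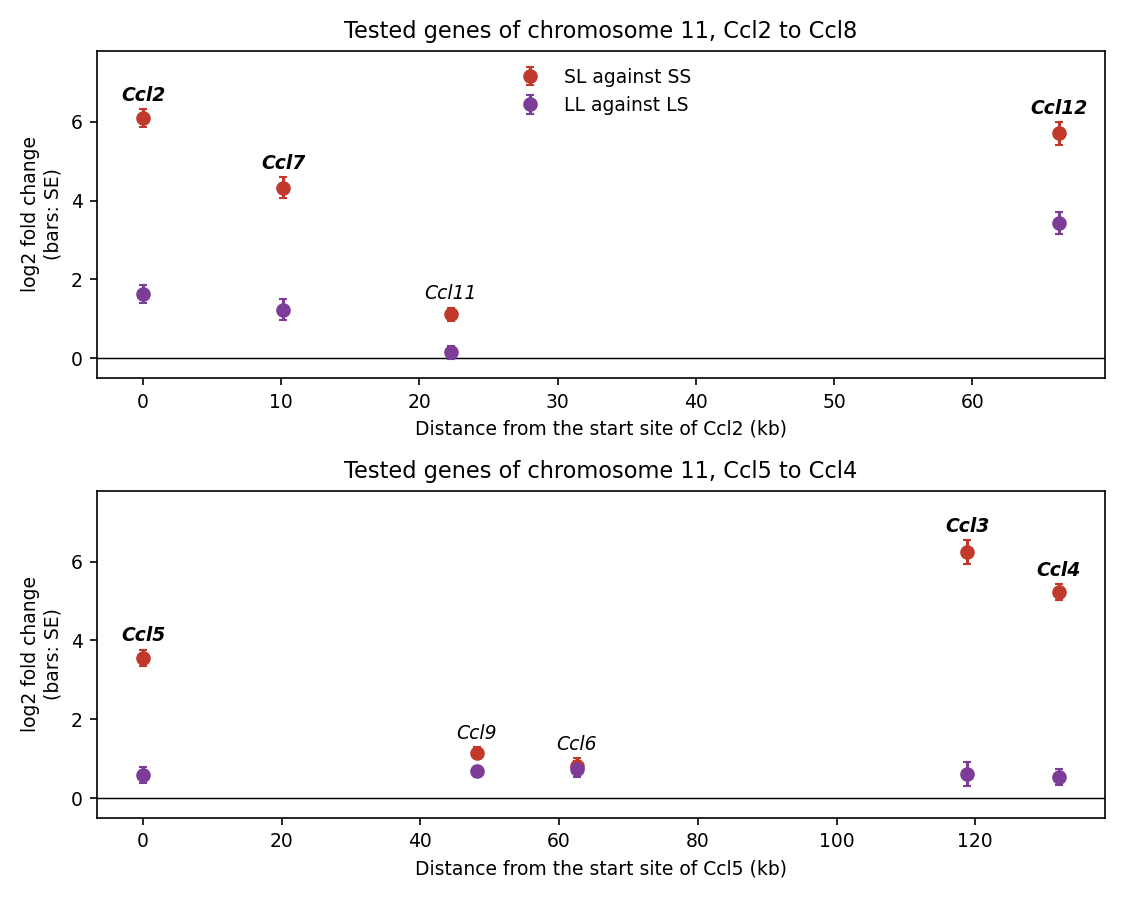
Log2 fold change of FPKM + 0.5 of the tested genes in the 2 stretches of chromosome 11, by distance in kb from the start site of Ccl2 (top) or Ccl5 (bottom). Points are limma estimates for SL against SS and LL against LS with standard errors, and the 6 chemokines described are in bold. Ccl12 has the highest LL against LS estimate, 3.43, and the paired estimates are 1.15 and 0.68 for Ccl9 and 0.81 and 0.74 for Ccl6.

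Of 13 CC chemokine receptors and decoys 4 were tested. Of these, 3 rose in SL against SS, were lower in LL than SL, and were not called in LL against LS. Over all tested genes 7.06% were called higher in SL against SS and 5.46% lower in LL against SL. Ccr1 and Ccrl2 reached 0.5 FPKM in SL libraries only, so they were tested only because they were high there. In LL against LS limma and limma voom called 0 of the 4, and 0 had an unadjusted p under 0.05. Ccr1, a receptor of Ccl3 and Ccl5, had means of 0.914 ± 0.268 FPKM in SL and 0.183 ± 0.105 in LL. Ccrl2, an atypical receptor that signals little, was at 1.07 ± 0.181 in SL and 0.246 ± 0.187 in LL. Ackr1, the decoy on endothelial cells and red cells, was at 45.0 ± 4.55 in SL and 28.9 ± 3.10 in LL. Ackr2, a scavenger of inflammatory CC chemokines, had -0.19 (SE 0.17) in SL against SS and 0.00 (SE 0.17) in LL against LS, neither called. Ccr2, the receptor of Ccl2, Ccl7 and Ccl12, was below the filter, with a mean of 0.0939 FPKM in SL and means of 0.0285, 0.0177 and 0.0432 in SS, LS and LL.

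**Figure D5:**
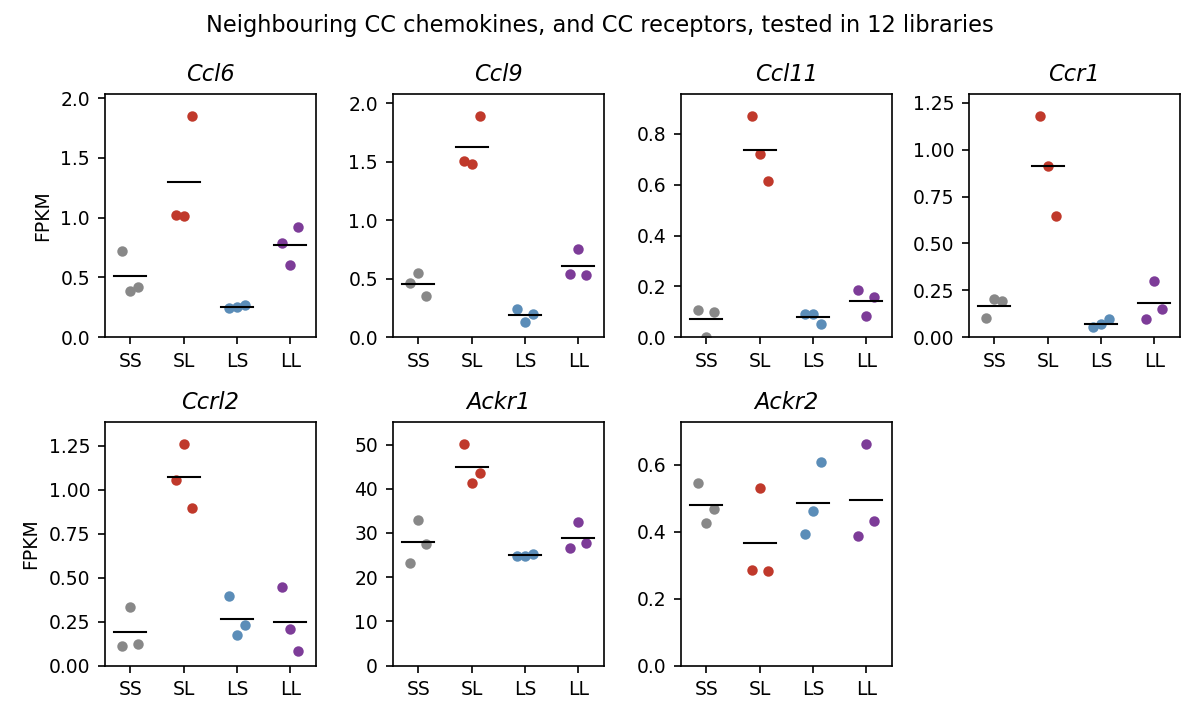
FPKM of 3 other CC chemokines that rose in SL against SS and of the 4 tested receptors and decoys in the 12 libraries, on linear axes from 0. Points are single animals and black bars are group means. Ccl6 and Ccl9 have LL libraries above all LS libraries, and the SL means of Ccr1, Ccrl2 and Ackr1, at 0.914, 1.07 and 45.0 FPKM, lie above their LL means.

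Marker lists of other cells that could bring or make these chemokines were summed in each library. The 6 monocyte markers summed to 0.489 to 0.568 FPKM in LS and 1.48 to 1.92 in LL, against 5.79 to 9.99 in SL, and 1 of 3 tested (Plac8) rose in LL against LS. Of these, Ly6c2 had means of 0.358 FPKM in SL and 0.0405 in LL. The 9 neutrophil markers summed to 3.31 to 3.84 FPKM in LS, 6.74 to 8.45 in LL and 120 to 240 in SL. Of 8 tested, 2 (S100a8 and Csf3r) rose in LL against LS. Ly6g had 0 fragments in LS and LL, but only 4 in SL, so it was near the floor in every group. The 9 markers of T and NK cells, which are known sources of Ccl5, summed to 0.192 to 0.563 FPKM in LS, 0.371 to 0.709 in LL and 0.481 to 1.59 in SL, where Cd3g and Cd2 had 0 fragments. The 12 resting microglia markers summed to 106 to 112 FPKM in SS, 71.4 to 98.2 in SL, 115 to 124 in LS and 145 to 151 in LL, with 3 of 12 called higher and 1 lower in LL against LS. The 7 border macrophage markers summed to 5.46 to 7.87 FPKM in SS, 3.51 to 5.10 in SL, 5.00 to 5.47 in LS and 7.86 to 10.5 in LL. Of 6 tested, 1 was higher and 2 lower in SL against SS, and in LL against LS 0 were called by limma and 2 by limma voom, and the unadjusted p of 4 was under 0.05. The 6 astrocyte markers summed to 839 to 1022 FPKM in SL and to 509 to 587 in the other groups. In SL against SS 3 of these 6 were higher and 1 lower. Gfap went from a mean of 87.2 FPKM in SS to 427 in SL. Slc1a2 had means of 278 and 288, and Gja1, the lower marker, 24.4 and 17.6. The 6 endothelial markers summed to 56.0 to 73.2 FPKM in SL and 48.0 to 70.4 in the others. Of these, 2 were higher and 0 lower in SL against SS, with Sele at 0.00620 in SS and 9.72 in SL. The part of these cells in the chemokine levels was not tested.

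Choroid plexus adjoins the hippocampus in the ventricle, and the level of its markers differed between libraries. The amount of this tissue and its RNA per cell cannot be told apart in bulk RNA. Its 15 markers summed to 2351 to 2803 FPKM in SS, 678 to 941 in SL, 38.4 to 1233 in LS and 2395 to 3456 in LL, and 13 of 15 rose in LL against LS. In LL against SS limma and limma voom called 0 of the 15, and 0 had an unadjusted p under 0.05. With the mean of these markers as a covariate in limma, Ccl12 was called in LL against LS (3.87, adjusted p = 0.0332). Ccl2 (1.03, SE 0.36; adjusted p = 0.513) and Ccl7 (0.99, SE 0.47; adjusted p = 0.749) were not. Without the covariate they were at 1.62 (SE 0.23) and 1.23 (SE 0.26). Genes called in this comparison fell from 470 to 37. The covariate differs between the groups, so this fit cannot separate the 2, and the lost calls do not show a source of the chemokines. Without LS replicates 2 and 3, the libraries lowest in these markers, only LS replicate 1 was left for LS. The LL against LS estimates were then 3.72 for Ccl12, 1.26 for Ccl2 and 1.14 for Ccl7. That fit is given as estimates only, since LS then had no spread between animals.

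The genes closest to each chemokine in pattern were found by the root mean square difference of log2(FPKM + 0.5), taken relative to the SS mean, over the 12 libraries and 12825 protein-coding genes. The closest to Ccl2 was Cxcl10 (0.28), with a mean of 31.6 ± 4.99 FPKM in SL and 0.973 ± 0.33 in LL, followed by S100a8 (0.33) and S100a9 (0.45). Ccl3 had the same 3 genes in the order S100a9 (0.45), S100a8 (0.47) and Cxcl10 (0.50). Ccl4 was closest to Acod1 (0.41), Mmp3 (0.48) and Ptx3 (0.49), Ccl5 to Msr1 (0.21), Serpina3n (0.23) and Bcl3 (0.23), and Ccl7 to Ch25h (0.28), Socs3 (0.35) and Gbp2 (0.35). Ccl12 had no gene as near, with C3 at 0.80, Lyz2 at 0.95 and Marco at 1.06, and its nearest fellow chemokine was Ccl2 at 1.07. C3 had means of 61.9 ± 18.4 FPKM in SL and 3.49 ± 1.60 in LL, and Lyz2 at 68.2 ± 6.89 and 20.6 ± 0.692. Among the 6 chemokines the nearest pairs were Ccl2 with Ccl3 (0.51) and Ccl5 with Ccl7 (0.58), each of them across the 2 stretches of the chromosome.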

How the data were processed

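Hippocampal polyA RNA of 12 mice was sequenced, 3 in each of 4 groups per the labels. The authors deposited FPKM per gene and library. The submitters' processing notes name HISAT2 2.0.5, featureCounts 1.5.0-p3 and mm10. No source used here gives the strand setting. Multiplied by gene length, 100% of 301149 values were whole multiples of a library's step within 0.01, and these fragments were used for limma voom. limma 3.58.1 (R 4.3.3) was fitted to log2(FPKM + 0.5) with 1 mean per group, 8 residual degrees of freedom and a mean trend, two-sided, with Benjamini-Hochberg adjustment over all tested genes in each of 6 comparisons at a threshold of 0.05. The fit was tested on simulated counts. The p-values measure the spread between animals. Replicate pairs differed by more than sampling noise (chi-square per gene 3.59 to 11.5).

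The chemokines and gene lists were chosen with earlier results of these data known. Named were the 6 chemokines, other CC chemokines and CC receptors, and the 3 protein-coding genes closest to each in pattern, with at least 1 FPKM in a group. One receptor is not reported here. Genes of these lists that were not called were added after their values were seen. Alternatives were a filter of 2 FPKM or none, pseudocounts of 1 and 0.1, scaling by quantiles or medians, a replicate block, a fit to only the groups compared, limma voom on fragments, a choroid plexus covariate, the removal of LS replicates 2 and 3, and each library left out.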

Additional observations from a re-analysis of the deposited data

Results flagged for a closer look

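By the interaction test of limma, the response to LPS on day 14 differed with the day 3 injection for all 6 chemokines. Over all tested genes 3.19% were called lower in this test. Ccl4 and Ccl5 were tested only because they were high in SL, which enters this test, so their calls lend no support of their own. The difference in log2 response, LL minus LS less SL minus SS, was -5.64 for Ccl3, -4.69 for Ccl4, -4.46 for Ccl2, -3.10 for Ccl7, -2.97 for Ccl5 and -2.27 for Ccl12. The direction was the same in all 22 alternatives for each gene, and the lowest and highest values for Ccl12 were -2.54 and -1.54. The calls did not all hold, since limma voom and the fit with the choroid plexus covariate each called 3 of the 6.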

How the results depend on the processing

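The SL against SS and LL against SL calls of all 6 chemokines, and the LL against LS call of Ccl12, held in all 23 alternatives. In the main fit Ccl4 and Ccl5 were tested only because they were high in SL. The number called in LL against LS, reported as 3, was 1 (Ccl12) with limma voom and with the choroid plexus covariate. With limma voom, Ccl2 was at 4.13 and Ccl7 at 2.95 in LL against LS (adjusted p = 0.167 and 0.183), and at 4.45 and 4.08 in LL against SS (adjusted p = 0.19 and 0.133), where 1 of the 6 was called. The interactions of Ccl2, Ccl7 and Ccl12 were then -5.12, -4.67 and -2.46 (adjusted p = 0.203, 0.124 and 0.216), so 3 were called. With the choroid plexus covariate, Ccl2 was at 1.03 and Ccl7 at 0.99 in LL against LS, the interactions of Ccl5, Ccl7 and Ccl12 were -2.75, -3.51 and -1.54, with adjusted p up to 0.613, and 3 were called. Without LS replicates 2 and 3, only LS replicate 1 was left for LS, and estimates alone are given. Ccl2 was then at 1.26 and Ccl7 at 1.14 in LL against LS, and the interaction of Ccl12 was -1.98. The Ccl7 call in LL against LS also ended without a filter (1.23), with a pseudocount of 1 (0.79), with quantile normalization (1.16) and with the replicate block (1.23, adjusted p = 0.0664). In LL against SS it ended with a pseudocount of 1 (0.88) and in 4 of 12 fits without 1 library, and a pseudocount of 0.1 gave a call of Ccl5 (1.93). Leaving out each library gave 1.11 to 1.42 for Ccl7 in LL against LS, 1.27 to 1.58 in LL against SS, and shares of the response of 2.85% to 4.02% for Ccl2 and 6.51% to 10.5% for Ccl7. As a ratio of log2 fold changes the shares were 60.2% for Ccl12, 28.4% for Ccl7, 26.7% for Ccl2, 16.6% for Ccl5, 10.3% for Ccl4 and 9.75% for Ccl3. With a pseudocount of 0.1 the shift of Ccl3 against Ccl4 from SL to LL turned from -0.42 to 0.0508, and that of Ccl5 against Ccl7 from 0.10 to -0.29, both between groups that overlapped. In LL against LS, the shift of Ccl3 turned from 0.07 to -0.27 against Ccl4 and from 0.02 to -0.51 against Ccl5. The causes were not tested. Same-numbered animals showed little shared deviation (correlations -0.0696 to 0.0959 over 18 pairs), which does not exclude a pairing by number. The replicate block changed no other call of the 6. Counts over all genes in LL against LS, reported as 470, fell to 37 with the choroid plexus covariate and 230 with only the groups compared. Leaving out 1 library gave 221 at the lowest.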
